A study of Mus musculus with 6 samples.

Results

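Albumin and 8 further plasma protein genes were followed through liver regeneration: *Alb*, *Afp*, *Gc*, *Ttr*, *Rbp4*, *Ahsg*, *Fetub*, *Ambp* and *Azgp1*. Adult hepatocytes are known to express all of these constitutively but *Afp*, the fetal relative of *Alb*, which ranked 9558 of the 17037 genes tested at 0 h (4.18 ± 1.04 CPM; SD, n = 3). They were chosen by gene name, and all 9 were found by their versioned identifiers among the 55450 genes of the count files. All 9 also passed the filter on low counts that left 17037 genes for testing. The libraries were bulk RNA-Seq of primary hepatocytes of C57BL/6 mice (C57BL/6J by the methods of the study), with 3 preparations at 0 h, before any operation, and 3 at 48 h after partial hepatectomy (PHx), an operation that takes away most of the organ. The mice were male by the same methods and 10 to 12 weeks old by the labels (slightly younger by the methods) and ate normal diet. No modified allele is named for them. Hepatocytes of both groups were freed by the same 2-step collagenase perfusion. No sham operation is described for the 0 h mice, so surgery and regeneration cannot be told apart, and bulk RNA does not separate fewer cells of a type from less RNA per cell.

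Most circulating protein other than antibody is made by hepatocytes, which translate it on the endoplasmic reticulum, cut off the signal peptide and secrete it without storage. Albumin carries fatty acids, hormones and drugs and holds water in the vessels. Alpha-fetoprotein (*Afp*) takes its place in the fetus and is silenced around birth, and the vitamin D binding protein (*Gc*) and afamin (*Afm*) belong to the same gene family. Transthyretin (*Ttr*) and retinol binding protein (*Rbp4*) travel in plasma as 1 complex that carries retinol. Fetuin-A (*Ahsg*) keeps calcium phosphate in solution, and fetuin-B (*Fetub*), its relative, inhibits a protease that acts on the egg coat. *Ambp* encodes a precursor that is cut into alpha-1-microglobulin, a heme scavenger, and bikunin, the light chain of the inter-alpha-inhibitors. *Azgp1* encodes zinc-alpha-2-glycoprotein, a soluble relative of the class I histocompatibility proteins. Several of these proteins, albumin and transthyretin among them, are known as negative acute-phase proteins, which means that their synthesis drops in inflammation.

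The genes of the albumin family lie together on mouse chromosome 5 (GRCm38). *Alb* (ENSMUSG00000029368.10) spans 90460897 to 90476602 on the plus strand, and *Afp* (ENSMUSG00000054932.6) follows at 90490737 to 90508907, 14.1 kb downstream of the end of *Alb*. *Afm* begins 10.0 kb beyond *Afp*, and *Gc* (ENSMUSG00000035540.12) lies 1003 kb upstream of *Alb* on the minus strand, from 89417522 to 89457898. The 150 bases before the RefSeq start of *Alb*, *Afp* and *Gc* (GRCm38.p6) are shown because the genes are relatives that did not move alike. Capitals mark GTTAATNAT, a stretch of letters that the windows of all 3 share, searched on both strands.
Alb, chr5:90460720-90460869, plus strand: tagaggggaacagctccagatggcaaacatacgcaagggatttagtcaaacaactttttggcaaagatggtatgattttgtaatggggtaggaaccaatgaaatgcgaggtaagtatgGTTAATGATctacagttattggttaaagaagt
Afp, chr5:90490564-90490713, plus strand: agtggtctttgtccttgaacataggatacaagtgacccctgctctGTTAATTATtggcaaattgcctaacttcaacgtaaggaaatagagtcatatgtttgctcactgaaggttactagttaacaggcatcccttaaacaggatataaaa
Gc, chr5:89457899-89458048, minus strand: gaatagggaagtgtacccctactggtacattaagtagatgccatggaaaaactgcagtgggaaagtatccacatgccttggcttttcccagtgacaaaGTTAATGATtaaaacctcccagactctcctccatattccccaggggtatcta

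Each window of 250 bases before the start of *Alb*, *Afp* and *Gc* held 1 match to this motif, and 0.737% of the 32851 such windows of all genes held it. It was 1 of 5 motifs searched and was picked with these sequences in view, so its presence here is a description and no test. CCAAT, another of the 5, was also in all 3 windows, and in 33.8% of all windows. The match began 32 bases before the start in *Alb*, 105 bases before it in *Afp* and 52 bases before it in *Gc*. The starts used here lie 27 bases upstream of the GENCODE start in *Alb*, 23 bases upstream of it in *Afp* and at the same base in *Gc*. The windows of *Ahsg*, *Fetub*, *Rbp4*, *Ambp* and *Azgp1* held no match, and no window was used for *Ttr*. A match to these letters is a description of the sequence, not of binding.

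The other members lie elsewhere. *Ttr* (ENSMUSG00000061808.4) is on chromosome 18 from 20665280 to 20674321, and *Rbp4* (ENSMUSG00000024990.13) is on chromosome 19 from 38116629 to 38125281. *Ahsg* (ENSMUSG00000022868.6; chromosome 16, 22891277 to 22899449) and *Fetub* (ENSMUSG00000022871.13; 22918334 to 22939778) are neighbours 18.9 kb apart on the same strand. *Ambp* (ENSMUSG00000028356.4) is on chromosome 4 from 63143275 to 63154799, and *Azgp1* (ENSMUSG00000037053.6) is on chromosome 5 from 137981520 to 137990233. The exons of 8 of the 9 genes overlap no other gene, and in *Ahsg* a gene on the other strand, Gm30505, covers 2.82% of the exon bases. No stretch of 50 bases of any member's annotated transcripts occurs in an annotated transcript of another gene. Only exact matches were sought, so copies with scattered differences would not have been found.

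Total gene counts were 31419443 to 36346220 per library at 0 h and 31684152 to 33093006 at 48 h, and TMM factors were 0.913 to 0.950 and 1.02 to 1.11. Of the 15 hepatocyte markers (2 of them, *Alb* and *Ttr*, also members), the summed share of gene counts was 11.1% to 13.0% at 0 h and 8.61% to 9.62% at 48 h, much of it *Alb* itself, with 1 gene higher and 5 lower. Of all gene counts, 12 Kupffer cell markers took 0.00842% to 0.0126% and 0.0126% to 0.0168%, with 3 genes higher and 1 lower, and 14 endothelial markers took 0.0318% to 0.0482% and 0.0231% to 0.0289%, with 13 genes lower. The 12 stellate cell markers took 0.00748% to 0.0123% and 0.00733% to 0.00952%, with 2 higher and 2 lower, and the 10 cholangiocyte markers took 0.00623% to 0.00882% and 0.00679% to 0.00813%, with 2 higher and 1 lower. The 8 erythroid markers took 0.00533% to 0.00810% and 0.00191% to 0.00447%, of which nearly all was *Alas2* (1726 to 2642 counts at 0 h and 627 to 1407 at 48 h), the only one tested, while the other 7 genes had 0 to 6 counts per library and *Hbb-bt* 0, and of the 8 neutrophil markers *Mpo*, *Ltf* and *Retnlg* were at 0 in every library and none reached the filter. Whether these small shares had a part in the results on plasma protein genes was not tested. Of all genes tested, 21.4% were higher and 19.3% lower by the test described below.

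At 48 h after PHx, transcripts of 5 of the 9 genes were lower: *Ttr*, *Azgp1*, *Alb*, *Fetub* and *Rbp4*, by 1.501-fold to 2.49-fold. *Afp* was the only gene that rose, by 1.52-fold and from a level far under that of *Alb*. *Gc*, *Ahsg* and *Ambp* did not pass the test. Genes were tested by the quasi-likelihood method of edgeR with time as the only term, and called at a Benjamini-Hochberg adjusted p under 0.05 over all 17037 genes. Of all genes, 40.7% were called, 19.3% as lower and 21.4% as higher at 48 h, while 55.6% of the 9 genes were lower and 11.1% were higher. Higher genes made up 52.5% of all calls with TMM and 71.6% with library size only, where the median of all genes moved to 0.20 on the log2 scale. Lower genes were in the majority with upper-quartile factors (44.5% of calls higher) and with TMM factors from protein-coding genes (47.4% higher). The median log2 fold change of the 9 genes was -0.59, and that of all genes was -0.0033. Levels are given as TMM-normalized CPM, the usual per-library scaling of gene counts after correction by the TMM factors. In these units the 0 h and 48 h libraries did not overlap for 8 of the 9 genes, 6 lower and 2 higher, against 52.7% of all genes by the same criterion, 25% lower and 27.8% higher.

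**Figure D1:**
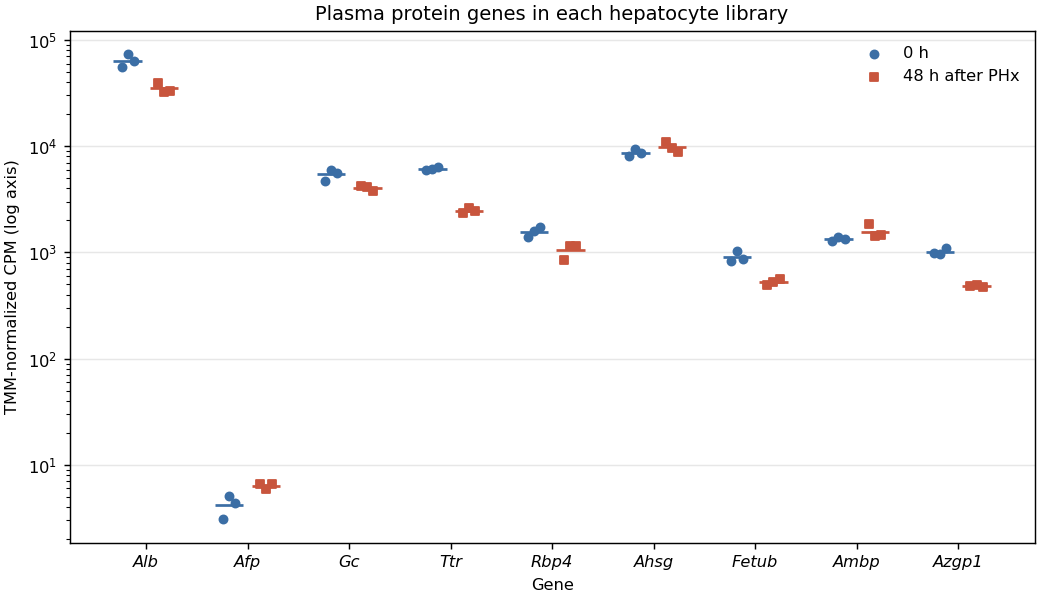
TMM-normalized CPM of the 9 genes (log axis) in each library, with 3 circles for 0 h, 3 squares for 48 h after PHx and lines at the group means. The groups are apart in every gene but *Ahsg*, with *Afp* (3.07 to 6.63 CPM) far under the other 8 genes.

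*Alb* was the gene with the second highest mean level of all genes tested, at both time points. It stood at 55171, 72948 and 62697 CPM in the 3 libraries at 0 h and at 39727, 32335 and 33239 CPM at 48 h. The lowest library at 0 h was thus well above the highest at 48 h, and replicate 2 at 0 h was the highest of all. The level was 1.81-fold lower at 48 h (log2 fold change -0.86, standard error 0.211, 95% interval -1.33 to -0.39, adjusted p = 0.00847 in edgeR). Even at 48 h, *Alb* had 14987 ± 1722 (SD, n = 3) CPM per kilobase of exon, more than any other of the 9 genes.

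*Afp*, the fetal member of the family, was counted in 90, 159 and 144 reads at 0 h and in 223, 212 and 229 reads at 48 h. In CPM these were 3.07, 5.13 and 4.34 at 0 h and 6.63, 5.93 and 6.55 at 48 h, so each library at 48 h was above each at 0 h. The log2 fold change was 0.61 (standard error 0.197, 95% interval 0.17 to 1.04, adjusted p = 0.0317 in edgeR). This call was the least firm of the 6. In edgeR the adjusted p was 0.0997 without replicate 1 at 0 h, 0.0711 without replicate 3 at 0 h, and 0.0826, 0.06002 and 0.07298 without replicates 1, 2 and 3 at 48 h, with log2 fold changes of 0.42 to 0.65. With upper-quartile factors it was 0.0695, and with TMM factors from protein-coding genes 0.0514.

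*Gc* carries vitamin D metabolites and mops up actin from broken cells. It stood at 4691, 5921 and 5650.2 CPM at 0 h and at 4228, 4116 and 3754 CPM at 48 h. The groups did not overlap, but the lowest library at 0 h was close to the highest at 48 h. The difference missed the threshold (log2 fold change -0.43, standard error 0.162, 95% interval -0.79 to -0.07, adjusted p = 0.0581 in edgeR). It passed under 6 of 17 alternatives, with an adjusted p of 0.00511 in DESeq2 and of 0.03597 in limma-voom. *Afm*, the remaining gene of the cluster, which binds vitamin E and Wnt proteins, fell from 278 ± 42.6 to 160 ± 26.0 CPM (SD, n = 3; log2 fold change -0.80, adjusted p = 0.00257 in edgeR).

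Of the retinol transport pair, *Ttr* had the largest change of the 9 genes. It stood at 5941, 6146 and 6407 CPM at 0 h and at 2335, 2624 and 2472 CPM at 48 h, a wide gap beside a narrow spread within each group. The fall was 2.49-fold (log2 fold change -1.32, standard error 0.151, adjusted p = 8.16e-05 in edgeR). *Rbp4* stood at 1395, 1588 and 1733 CPM at 0 h and at 852, 1143 and 1146 CPM at 48 h. It fell by less, 1.501-fold (log2 fold change -0.59, standard error 0.165, adjusted p = 0.0165 in edgeR). Without replicate 3 at 0 h its adjusted p was 0.0627, and scaling by library size alone gave 0.111.

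The fetuins, side by side on chromosome 16, differed from each other. *Fetub* stood at 830.4, 1037 and 865 CPM at 0 h and at 489, 529 and 567 CPM at 48 h, with no overlap between the groups. It fell 1.72-fold (log2 fold change -0.79, standard error 0.141, adjusted p = 0.00145 in edgeR). *Ahsg* stood at 8119, 9460.1 and 8537 CPM at 0 h and at 11052, 9665 and 8817 CPM at 48 h, where replicate 3 was within the range of the 0 h libraries. Its log2 fold change was 0.18 (95% interval -0.20 to 0.56, adjusted p = 0.443 in edgeR). Farther along the same cluster, *Hrg*, which encodes histidine-rich glycoprotein, had a log2 fold change of -0.10 (adjusted p = 0.597). For the kininogen genes *Kng1* and *Kng2*, a pair of close paralogs whose counts are less certain for that reason, it was -0.01 (adjusted p = 0.979) and 0.50 (adjusted p = 0.0472), all in edgeR. The call of *Kng2* was lost under 11 of 17 alternatives, among them leaving out any 0 h library (adjusted p = 0.0547 to 0.146) or replicate 1 or 2 at 48 h (adjusted p = 0.179 and 0.101).

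*Ambp* stood at 1292, 1391 and 1326 CPM at 0 h and at 1838, 1414 and 1454 CPM at 48 h. Replicate 1 at 48 h was the highest, and the other two were just above the 0 h libraries. The difference did not pass the test (log2 fold change 0.23, 95% interval -0.10 to 0.57, adjusted p = 0.2499 in edgeR), though it did with library size only (log2 fold change 0.43, adjusted p = 0.0348). *Azgp1* stood at 992, 965 and 1103 CPM at 0 h and at 486, 492 and 471 CPM at 48 h, and the groups did not overlap. It fell 2.11-fold (log2 fold change -1.08, standard error 0.128, adjusted p = 0.000103 in edgeR).

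**Figure D2:**
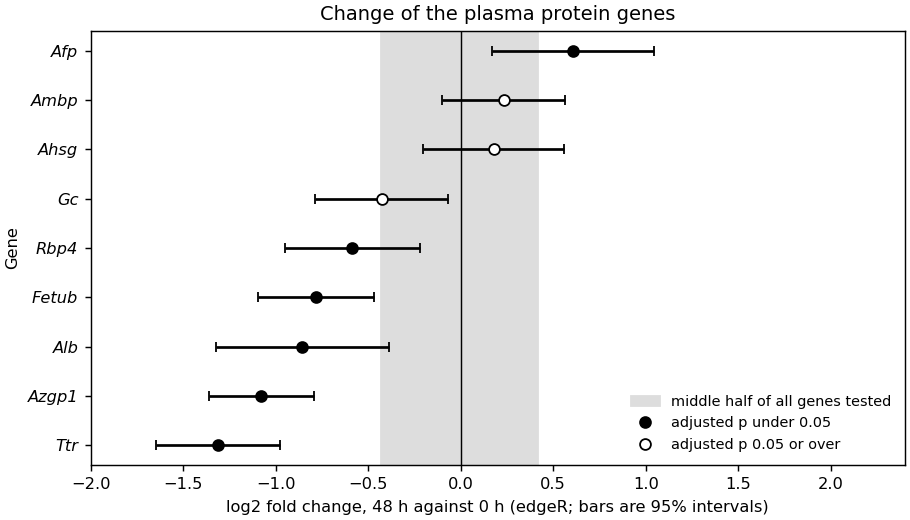
Log2 fold change of each gene at 48 h against 0 h with its 95% interval from edgeR (3 libraries against 3); filled points have an adjusted p under 0.05. The grey band holds the middle of all tested genes, from -0.43 to 0.42. The intervals of *Ahsg* and *Ambp* are the 2 of 9 that include 0.

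Per kilobase of exon, the order of the 9 genes at 0 h was *Alb*, *Ttr*, *Ahsg*, *Gc*, *Rbp4*, *Ambp*, *Azgp1*, *Fetub* and *Afp*. The levels ran from 27159 ± 3810.1 CPM per kilobase (SD, n = 3) for *Alb* to 1.24 ± 0.309 for *Afp*, and the libraries of neighbours in this order did not overlap. At 48 h the order was *Alb*, *Ahsg*, *Gc*, *Ttr*, *Ambp*, *Rbp4*, *Azgp1*, *Fetub* and *Afp*. *Ttr* had moved from the second to the fourth place, at 2088 ± 122 CPM per kilobase, where its libraries overlapped those of *Gc* (2186 ± 134). *Ambp* (1113 ± 166) had passed *Rbp4* (780 ± 126), and these libraries did not overlap.

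The share of a library's gene counts on a gene scales by library size alone, without TMM, and on that scale the median log2 fold change of all genes was 0.20. *Alb* alone took 5.15%, 6.92% and 5.72% of the gene counts at 0 h and 4.04%, 3.54% and 3.67% at 48 h. The 9 genes together took 7.33%, 9.44% and 8.06% at 0 h and 6.20%, 5.73% and 5.73% at 48 h, a difference of -2.39 percentage points. Both shares were lower in every library at 48 h (two-sided exact permutation test over libraries, p = 0.1 for each, the smallest p that 3 libraries against 3 allow). The 8 genes other than *Alb* summed to 2.34% ± 0.171 at 0 h and 2.14% ± 0.0663 at 48 h (SD, n = 3), and here the libraries overlapped (log2 ratio -0.13, exact permutation p = 0.2). They did not overlap as a share of counts on protein-coding genes (log2 ratio -0.13), as a share of counts other than those of *Alb* (-0.17) or in TMM-normalized CPM (-0.33), with an exact permutation p = 0.1 for each. The exact permutation p stayed 0.2 without mitochondrial genes and was 0.4 as a share of gene counts plus reads on no gene (log2 ratio -0.074). Among these 8 genes, a higher share on *Ahsg* (0.812% ± 0.0752 at 0 h and 1.05% ± 0.0753 at 48 h) stood against a lower one on *Ttr* (0.574% ± 0.0168 and 0.266% ± 0.0257; SD, n = 3 for each). By share, the libraries of *Ahsg* did not overlap, unlike its TMM-normalized CPM. Of the counts on the 9 genes, *Alb* made up 71.6% ± 1.58 at 0 h and 63.6% ± 1.69 at 48 h, and *Ahsg* 9.84% ± 0.447 and 17.9% ± 0.779 (SD, n = 3).

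**Figure D3:**
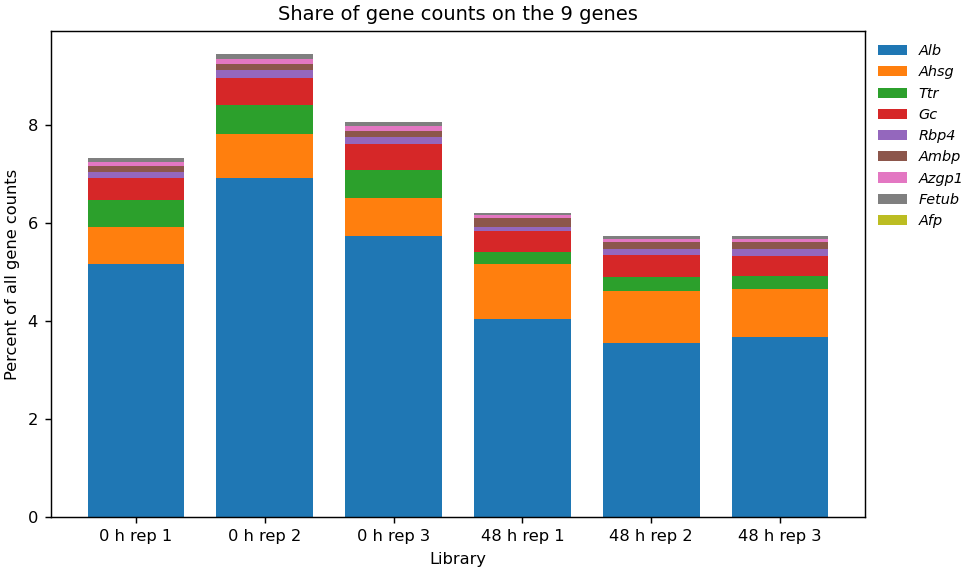
Percent of all gene counts on each of the 9 genes, stacked, in each library. *Alb* forms most of every bar, and the bars of the 3 libraries at 48 h (5.73% to 6.20%) are shorter than those at 0 h (7.33% to 9.44%).

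Ratios of 2 genes within a library compare members with their relatives and partners. Per kilobase of exon, *Alb* exceeded *Afp* 25876-, 20456- and 20773-fold at 0 h and 8621-, 7836- and 7303-fold at 48 h, so that the ratio of *Afp* to *Alb* was 2.81-fold higher at 48 h. *Alb* exceeded *Gc* 9.27-, 9.71- and 8.74-fold at 0 h and 7.40-, 6.19- and 6.97-fold at 48 h. *Ahsg* exceeded *Fetub* 8.73-, 8.15- and 8.81-fold at 0 h and 20.2-, 16.3- and 13.9-fold at 48 h, the pair with the widest spread at 48 h. *Ttr* exceeded *Rbp4* 4.82-, 4.38- and 4.19-fold at 0 h and 2.44- to 3.10-fold at 48 h. The ratio of *Ambp* to *Itih1*, a heavy chain gene of its plasma complex, was 2.01-fold higher at 48 h. This does not hold for the heavy chain genes *Itih2* and *Itih3*, for which no ratio was taken. Their log2 fold changes (0.69 and 1.39 in edgeR) were above that of *Ambp* (0.23). In each of the 5 pairs the groups were fully apart (p = 0.1 for each by the two-sided exact permutation test, the smallest possible, and 0.1 after Benjamini-Hochberg adjustment over the 5 pairs). Of single genes, 52.7% were fully apart in TMM-normalized CPM, and how often other gene pairs are was not tested.

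**Figure D4:**
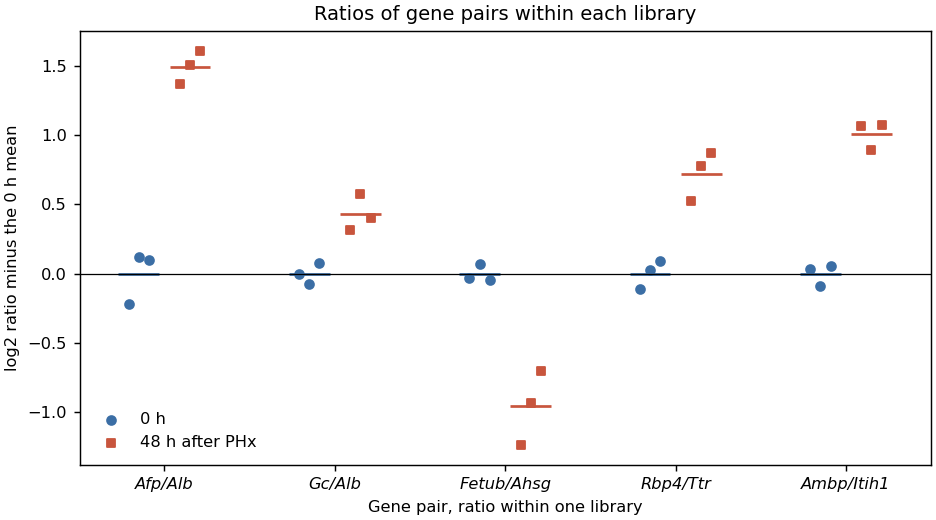
Log2 ratio of the counts of 2 genes within a library, minus the mean of the 0 h libraries, for 5 gene pairs (circles for 0 h, squares for 48 h after PHx, lines at the group means). The 3 squares lie above the circles in every pair but *Fetub* to *Ahsg*, where they lie below.

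Genes that act with these proteins were taken from a list of 13 partners, receptors and cargo genes. Of the 10 that were tested, 3 were higher (30%) and 4 lower (40%) at 48 h, beside 21.4% and 19.3% of all genes tested. The median log2 fold change of the 10 was -0.22. *Fcgrt* and *B2m*, the chains of the receptor that returns albumin to the blood, both fell. *Fcgrt* went from 136 ± 8.89 to 61.4 ± 7.25 CPM (SD, n = 3; log2 fold change -1.15, adjusted p = 4.54e-05 in edgeR). *B2m*, which also pairs with class I histocompatibility chains, had a log2 fold change of -0.83 (adjusted p = 0.00393 in edgeR).

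The heavy chains that bikunin is joined to did not move together. *Itih1* fell from 844 ± 77.4 to 491 ± 60.3 CPM, while *Itih3* rose from 958 ± 67.5 to 2507 ± 726 CPM (SD, n = 3; log2 fold changes -0.78 and 1.39, adjusted p = 0.00163 and 0.000398 in edgeR). *Itih2* rose by a log2 fold change of 0.69 (adjusted p = 0.0162 in edgeR), a call that was lost without replicate 1 at 0 h (adjusted p = 0.0662) or replicate 3 at 0 h (adjusted p = 0.05902). *Cyp27a1*, which hydroxylates sterols and vitamin D, fell by a log2 fold change of -1.46 (adjusted p = 1.46e-05 in edgeR). *Stra6*, a cell surface receptor for *Rbp4* protein, had 0 counts in every library, which allows up to 0.0825 to 0.0955 CPM (3 counts per library over its gene counts before TMM scaling, covering counting error only). *Vdr* had 1 to 4 counts per library and *Cubn*, a kidney uptake receptor, also 1 to 4.

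Among 33 other plasma proteins, 32 were tested, of which 17 were lower (53.1%) and 7 higher (21.9%) at 48 h. Of all genes tested, 19.3% were lower and 21.4% higher. The median log2 fold change of the list was -0.47. *Itih1*, *Itih2* and *Itih3* are counted in this list and among the partners. *Mug1*, a protease inhibitor of the alpha-2-macroglobulin family, fell from 7702 ± 842 to 1541 ± 142 CPM (SD, n = 3; log2 fold change -2.32, adjusted p = 3.50e-06 in edgeR); it has close paralogs, so its counts are less certain. *Serpinf1*, a protein that restrains vessel growth, and *Hgfac*, the protease that activates hepatocyte growth factor, fell by log2 fold changes of -1.47 and -1.42 (adjusted p = 1.48e-05 and 3.61e-06 in edgeR). *Hpx*, which clears heme and is a positive acute-phase protein, rose from 2285 ± 237 to 8345 ± 2896 CPM (SD, n = 3; log2 fold change 1.87, adjusted p = 0.000175 in edgeR). *Trf*, the transferrin gene, had a log2 fold change of -0.01 (adjusted p = 0.982 in edgeR), and a gene on the same strand covers 63.5% of its exon bases, so its counts are uncertain. Without replicate 1 or replicate 3 at 0 h, the higher count went from 7 to 4. *A1bg* had 0 to 7 counts per library and was not tested.

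Secreted proteins pass through the translocon and the vesicles of the secretory pathway, and 37 genes of these steps were tested. Of them, 15 were higher (40.5%) and 3 lower (8.11%) at 48 h, beside 21.4% and 19.3% of all genes tested. The median log2 fold change of the 37 was 0.34. *Sec61g*, a subunit of the translocon, rose from 12.7 ± 2.46 to 24.1 ± 1.74 CPM, and *Ssr3*, of the translocon-associated complex, from 289 ± 24.5 to 539 ± 34.0 CPM (SD, n = 3; log2 fold changes 0.93 and 0.90, adjusted p = 0.000604 and 0.00031 in edgeR). *Sec13*, a coat protein of the vesicles that leave the endoplasmic reticulum, rose by 0.79 on the log2 scale (adjusted p = 0.00151 in edgeR). *Mia3*, a receptor that loads large cargo at exit sites, fell from 188 ± 19.01 to 110.5 ± 12.1 CPM (SD, n = 3; log2 fold change -0.76, adjusted p = 0.0009 in edgeR). The higher count was 24 with library size only and 9 without replicate 1 at 48 h.

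**Figure D5:**
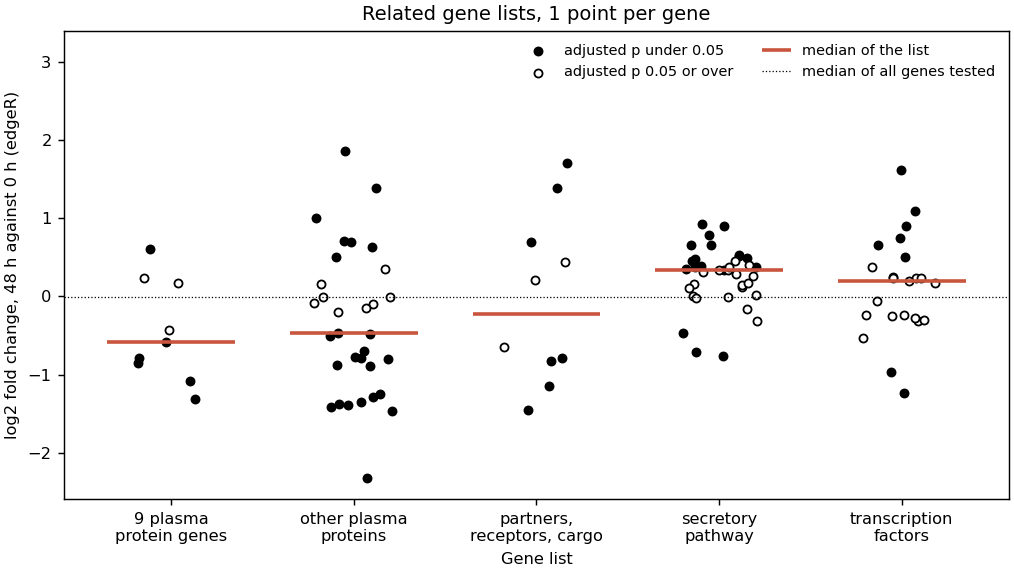
Log2 fold change at 48 h against 0 h (edgeR) of every tested gene of 5 lists, 1 point per gene and list (filled where the adjusted p is under 0.05), with the median of each list as a line and that of all genes (-0.0033) dotted. The medians are -0.59 for the 9 plasma protein genes, -0.47 for other plasma proteins, -0.22 for partners, 0.34 for the secretory pathway and 0.20 for transcription factors.

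A list of 23 transcription factors held those known to act on the albumin and alpha-fetoprotein genes or in hepatocytes at large. Of them, 6 were higher (26.1%) and 2 lower (8.70%) at 48 h, beside 21.4% and 19.3% of all genes tested. The median log2 fold change of the list was 0.20. *Cebpa*, an activator of *Alb*, fell from 660, 393 and 538 CPM at 0 h to 204, 290.4 and 316 CPM at 48 h (log2 fold change -0.97, adjusted p = 0.00449 in edgeR). *Onecut1* also fell (log2 fold change -1.23, adjusted p = 0.0160 in edgeR), but a gene on the same strand covers 52.8% of its exon bases, and the adjusted p was 0.0675 without replicate 1 at 0 h and 0.0552 without replicate 2 at 48 h. *Dbp*, a clock-driven factor named for the D site of the *Alb* promoter, stood at 14.6, 15.8 and 18.8 CPM at 0 h and at 22.02, 60.01 and 68.7 CPM at 48 h. Replicate 1 at 48 h was thus much closer to the 0 h libraries than the other two, and the log2 fold change was 1.62 (adjusted p = 0.00311 in edgeR). *Cebpd* rose from 7.37 ± 0.783 to 15.7 ± 4.66 CPM (SD, n = 3; log2 fold change 1.10, adjusted p = 0.00188 in edgeR). Genes on the other strand cover 18.01% of the exon bases of *Dbp* and 15% of those of *Cebpd*, and whether reads were counted by strand is not given in the sources used here.

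*Hnf4a*, a nuclear receptor that maintains hepatocyte gene expression, did not pass the test (log2 fold change 0.23, adjusted p = 0.200 in edgeR). The 3 known repressors of *Afp* had log2 fold changes of 0.24 (*Zbtb20*, adjusted p = 0.177), 0.23 (*Zhx2*, adjusted p = 0.173) and -0.25 (*Zfhx3*, adjusted p = 0.154) in edgeR, and none passed. With library size only, *Hnf4a*, *Zbtb20* and *Zhx2* passed as higher. The count of factors lower at 48 h was 1 without replicate 1 at 0 h or replicate 2 at 48 h, 6 without replicate 2 at 0 h and 4 without replicate 3 at 48 h.

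Of 15 other genes of fetal liver, 7 reached the filter. In edgeR, 2 of these were higher (28.6%) and 0 lower at 48 h, beside 21.4% and 19.3% of all genes tested. DESeq2 and limma-voom also gave 0 lower, and an unadjusted p under 0.05 in edgeR gave 3 higher and 1 lower. *H19* had 1, 0 and 4 counts at 0 h and 14, 7 and 1 at 48 h, and *Igf2* had 1 to 3 counts in every library, at or under the floor of 3 counts. A gene on the same strand covers 62.8% of the exon bases of *Igf2*, and reads on both genes were not counted, so its low counts cover only part of its exons. *Spp1*, an osteopontin gene also known as a marker of bile duct cells (its list took a like share of counts at both times, given above), had a log2 fold change of 1.51 (adjusted p = 0.0212 in edgeR), and *Scd2*, a desaturase, of 1.31 (adjusted p = 0.0371 in edgeR), while the libraries of the time points overlapped in both. A gene on the same strand covers 18.8% of the exon bases of *Spp1*. Its adjusted p was 0.06796, 0.0757 and 0.0844 without replicate 2 at 0 h, replicate 3 at 0 h and replicate 3 at 48 h. The call of *Scd2* was lost without any one of the 0 h libraries (adjusted p = 0.0662 to 0.114) and without replicate 1 at 48 h, which held 549 counts against 228 and 129 in the other two (log2 fold change 0.51, adjusted p = 0.177). It was also lost in DESeq2 (adjusted p = 0.0891), in limma-voom (adjusted p = 0.115) and with the replicate block (adjusted p = 0.0779). The higher count of 2 was 0 without replicate 3 at 0 h and 1 without replicate 1 or 2 at 0 h or replicate 1 or 3 at 48 h.

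Genes with the pattern most like those of *Alb* and *Afp* were sought by Pearson's r, among the 7561 genes whose mean reached 10 CPM, of log2 CPM (prior count 2) over the 6 libraries. For *Alb* they were *Tsc22d3* (r = 0.999), *Pqlc2* (r = 0.998) and *Prdx4* (r = 0.998). *Tsc22d3* stood at a mean of 145 CPM at 0 h and 50.6 CPM at 48 h. For *Afp* they were *Abhd13* (r = 0.996), *Cnot6l* (r = 0.988) and *Gmfb* (r = 0.988). With 6 libraries in 2 groups, and the highest r of 7561 taken, such values describe these libraries only.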

How the data were processed

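Hepatocyte RNA was extracted with TRIzol and made into libraries by standard Illumina protocols per the labels. The authors deposited raw counts per gene for each library, with no normalization. The submitters' processing notes name FastQC 0.11.5, Trim Galore 0.6.4, STAR 2.6, HTSeq 0.12.4, DESeq2 and the build mm10, while the strand setting and the counting mode are not given in the sources used here. Lines for unaligned and multiply aligned reads hold 0. Reads on no gene (24.3% to 32.7% of reads per library) and reads on several genes (4.27% to 5.29%) stayed out of library sizes and tests. The study's methods describe separate mice as replicates.

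All 55450 versioned identifiers matched GENCODE M21 (GRCm38), which gave names, coordinates and exon lengths. Promoter windows came from RefSeq (GRCm38.p6), with 8 of the 9 genes matched and used. A gene was kept when 3 or more libraries held 10 or more counts, and was tested with edgeR 4.0.16 (TMM, glmQLFit and glmQLFTest) in R 4.3.3. A standard error is the log2 fold change divided by the square root of F. Shares and ratios were compared by exact permutation tests with scipy 1.17.1. DESeq2 1.42.0, limma-voom (limma 3.58.1), other scalings and filters, the replicate block and leaving out each library were the alternatives.

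The 9 genes and all lists were chosen with earlier results of these data known. All 9 genes were described. From each further list, the text names the called genes with the largest changes (up to 4) and a fixed set of relatives, regulators and partners, whatever their values. Some genes that this rule names are not reported here. The gene *B2m* was named outside this rule after its values were seen, as the partner of *Fcgrt*, and so were the neighbours *Hrg*, *Kng1* and *Kng2*, and *Stra6*, *Vdr*, *Cubn* and *A1bg*, which had too few counts to test. The motif was chosen with the sequences in view. The edgeR script was tested on simulated data first.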

Additional observations from a re-analysis of the deposited data

How the results depend on the processing

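Across 17 alternatives, none of the 9 genes changed direction, and *Alb*, *Ttr*, *Fetub* and *Azgp1* passed in all of them, with log2 fold changes of -0.96 to -0.66, -1.40 to -1.11, -0.87 to -0.58 and -1.16 to -0.88. *Rbp4* was lost under 2, *Afp* under 7, *Gc* gained under 6 and *Ambp* under 1, as given above. With library size only, 2108 genes were lower in place of 3288 and 5309 higher in place of 3638, which moved the share of higher genes among all calls from 52.5% to 71.6% (44.5% with upper-quartile and 47.4% with protein-coding TMM factors) and the median log2 fold change to 0.20. The number of the 9 genes that were higher was then 2 in place of 1, that of transcription factors 10, of fetal liver genes 4 and of secretory pathway genes 24. It was 0 of the 9 genes with upper-quartile factors and with TMM factors from protein-coding genes. Leaving out 1 library gave 0 to 1 of the 9 genes higher, 4 to 7 other plasma proteins higher, 1 to 6 transcription factors lower, 0 to 2 fetal liver genes higher and 9 to 16 secretory pathway genes higher. The transcription factors that were lower numbered 4 in DESeq2, with RLE factors and with the filter at 1 CPM, and 5 with upper-quartile factors and with protein-coding TMM factors. Fetal liver genes that were higher numbered 1 in DESeq2, in limma-voom and with the replicate block.

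Values near 0 changed sign. With library size only the log2 fold change was 0.11 for *Hrg*, 0.19 for *Kng1* and 0.19 for *Trf*, and with TMM factors without the 100 most abundant genes it was 0.0015 for *Kng1* and 0.0018 for *Trf*. Leaving out 1 library gave -0.19 to 0.14 for *Kng1* and -0.11 to 0.084 for *Trf*. The cause was not tested.

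A replicate block left 3237 higher and 2884 lower genes, and the calls of the 9 genes did not change. Same-numbered libraries come from different mice, and their deviations from the group means correlated by 0.0335, -0.0674 and -0.138, so the numbers do not pair them. The log2 ratio of the *Alb* share at 48 h to that at 0 h was -0.66, and -0.86 to -0.54 over 12 alternatives. That of the other 8 genes was -0.13, and -0.33 to -0.074 over the same alternatives. At this depth *Afp*, with 90 to 229 counts, is the least precise of the 9 genes by counting error.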
